A study of Mus musculus with 6 samples.

Results

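The Snhg1 locus of the mouse was examined in the small RNA of exosomes. Its members were the transcripts of the deposited non-coding RNA table that the GENCODE vM21 annotation of the mouse genome (GRCm38) places on the plus strand within a fixed window of chromosome 19 around Snhg1; they spanned chr19:8723475-8726443. This position rule used no measured value. It found 26 of the 5880 transcripts in the table, made up of 18 isoforms of Snhg1 and 8 small nucleolar RNAs (snoRNAs), and these were all 26 transcripts annotated there. P19 is a mouse embryonal carcinoma cell line, pluripotent when undifferentiated. UD-P19 exosomes came from undifferentiated P19 cells grown with serum and then moved for the last day to serum-free alpha-MEM with N2 supplement, and were sequenced in 3 libraries (replicates 1 to 3). P19N exosomes came from P19 neurons, derived from the same line by retinoic acid and kept in neurobasal medium with B27 and N2, and were sequenced in 3 libraries taken from cultures 8, 10 and 12 days old (replicates 4, 5 and 6). To stop cell proliferation, the P19N cultures were also exposed to 5-fluorouridine and uridine for a day, on day 3 and again on day 8 after the medium of that day was collected, which puts the later exposure before the collections at 10 and 12 days and not before that at 8 days. This exposure is given in the methods only, while the sample labels state that no drug was used. The paper calls the libraries biological replicates, but P19N medium was collected on day 8 and on alternate days after it. Whether the 3 P19N libraries came from the same flasks is not stated. The comparison asks which locus RNAs differ between exosomes of pluripotent cells and of the neurons made from them. Medium, supplements and exposure to these nucleosides differed with the cell state and cannot be told apart from it, each culture age is 1 library, and fewer vesicles carrying an RNA cannot be told apart from fewer copies per vesicle.

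Snhg1 is a small nucleolar RNA host gene. Such a host is transcribed as a long RNA with snoRNAs in its introns, as a rule not more than one to an intron; after splicing, the excised intron is opened and trimmed at both ends until only the snoRNA with its bound proteins is left. Most snoRNAs of this host are box C/D snoRNAs, which carry a C box near the 5′ end and a D box near the 3′ end and guide 2′-O-methylation of ribosomal RNA by base pairing. Snord22, also called U22, is a box C/D snoRNA known instead for its part in the processing of the precursor of 18S ribosomal RNA. Spliced Snhg1 itself codes for no known protein and is unstable in many cells. Gene symbols that begin with Gm are predicted-gene names, so for those members only the annotated class is given.

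Each of the 8 snoRNAs lay alone in 1 intron of the fully spliced isoform Snhg1-211, which has 10 exons and 9 introns. In order of transcription these were Gm25855 in intron 1 (chr19:8723993-8724064), Gm25894 in intron 2 (chr19:8724251-8724325), Gm24452 in intron 3 (chr19:8724531-8724602), Gm24453 in intron 4 (chr19:8724868-8724943), Gm22744 in intron 5 (chr19:8725092-8725156), Gm22680 in intron 6 (chr19:8725341-8725409), Gm23246 in intron 7 (chr19:8725594-8725660) and Snord22 in intron 8 (chr19:8725866-8725991). Intron 9 held none. The sequences are shown because the counts of the whole locus turn on which isoform contains which of them. They are the GENCODE vM21 transcripts on GRCm38, plus strand, 5′ to 3′. Capitals mark 2 motifs where a search found them. These were TGATGA starting within the first 20 bases (the letters of a C box) and CTGA within the last 20 bases (a D box).
Gm25855: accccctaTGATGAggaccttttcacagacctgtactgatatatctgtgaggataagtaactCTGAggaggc
Gm25894: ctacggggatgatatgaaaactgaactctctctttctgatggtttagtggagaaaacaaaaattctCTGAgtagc
Gm24452: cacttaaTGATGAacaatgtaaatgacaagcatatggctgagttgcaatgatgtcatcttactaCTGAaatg
Gm24453: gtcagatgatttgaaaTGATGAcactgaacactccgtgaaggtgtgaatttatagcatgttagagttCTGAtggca
Gm22744: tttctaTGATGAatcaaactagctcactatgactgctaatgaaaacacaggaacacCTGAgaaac
Gm22680: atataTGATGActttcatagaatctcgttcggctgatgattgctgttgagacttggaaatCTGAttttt
Gm23246: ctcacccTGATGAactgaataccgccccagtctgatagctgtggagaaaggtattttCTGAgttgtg
Snord22: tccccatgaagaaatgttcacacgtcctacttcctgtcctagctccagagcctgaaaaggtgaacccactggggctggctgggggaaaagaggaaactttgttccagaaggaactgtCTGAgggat
The D box letters were found in 8 of 8 and the C box letters in 6 of 8, all except Gm25894 and Snord22. Among the 400 annotated snoRNAs of the table with a length of 65 to 126 bases, the same search found CTGA in 91.5% and TGATGA in 75.75%. Snord22 was the longest at 126 bases and the other snoRNAs were 65 to 76 bases long. All except Gm23246, at 121 bases, ended 65 to 77 bases before the 3′ splice site of their intron.

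**Figure D1:**
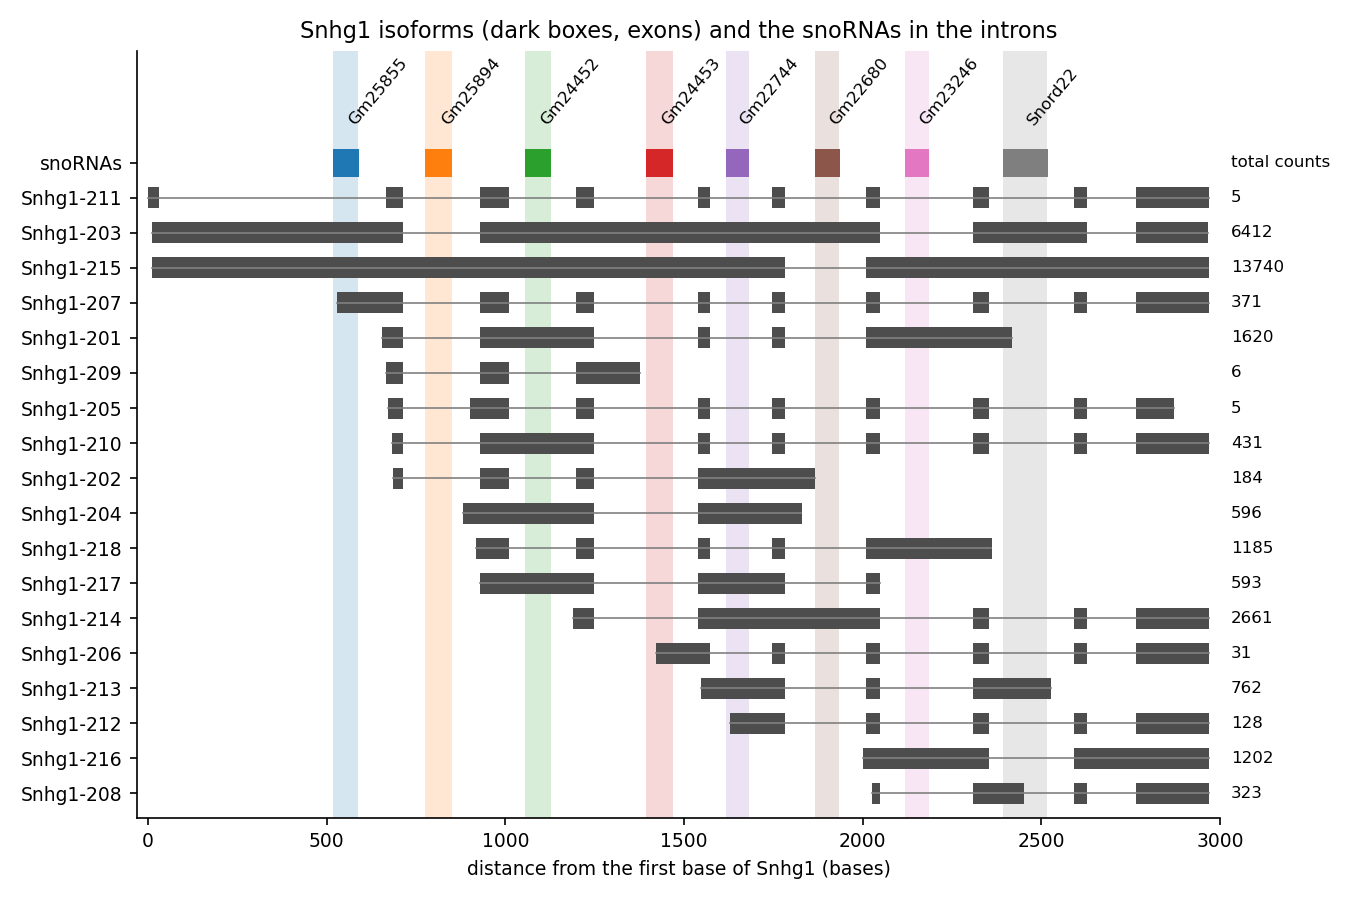
Exons of the 18 Snhg1 isoforms (dark boxes, joined by a line) and the 8 snoRNAs (coloured boxes and bands) by distance in bases from the first base of Snhg1, with the total counts of each isoform over the 6 libraries at the right. Snhg1-211, Snhg1-209 and Snhg1-205, whose exons touch no coloured band, had totals of 5, 6 and 5 counts, whereas Snhg1-215, which covers 7 snoRNAs, had 13740.

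The counts of the locus followed its snoRNAs and not its exons. Of the 18 isoforms, 11 keep at least 1 snoRNA whole within an exon, 4 keep only a part of one (Snhg1-207, Snhg1-206, Snhg1-212 and Snhg1-208), and 3 hold no snoRNA base. Those 3, which include the fully spliced Snhg1-211, had 0 to 3 counts in any library. Snhg1-215, which keeps every intron with a snoRNA except that of Gm22680, had 1980, 1080 and 2986 counts in UD-P19 replicates 1 to 3 and 2737, 2546 and 2411 counts in P19N replicates 4 to 6. In 50 of the 66 pairs of an isoform and a library, the count at an isoform was within 15% of the summed counts of the snoRNAs it holds whole, with a median of 103.4% of that sum and a range of 73.3% to 151.5%. The highest percentages were those of Snhg1-213, which holds Gm22744 and Snord22 and exceeded their sum in every library, by 14 to 68 counts. Snhg1-203, Snhg1-215 and Snhg1-214 also exceeded their sums in every library, by 37 to 95, 31 to 83 and 9 to 64 counts.

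**Figure D2:**
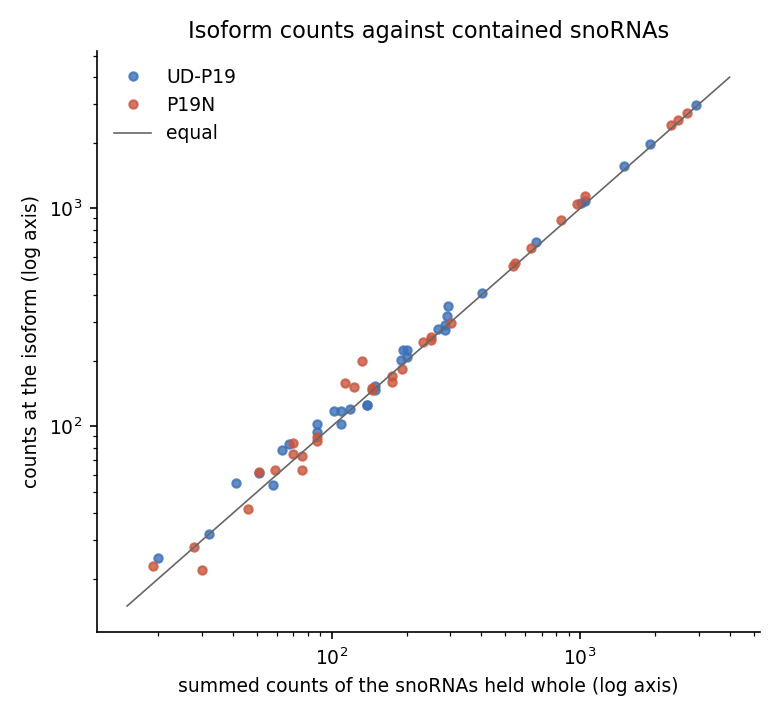
Counts at each of the 11 isoforms with a whole snoRNA against the summed counts of the snoRNAs each holds, 1 point per isoform and library (66 points, both axes logarithmic, line at equality). The points of both groups lie along the line, 50 of them within 15% of it.

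An isoform had fewer counts than the snoRNAs inside it in 16 of the 66 pairs, and in 9 of 24 for the 4 isoforms that hold exactly 1 whole snoRNA. Such values cannot arise if a read is counted in full at every transcript that contains it, so the reads were not all counted in full at each row that holds them. The values were near those that an equal division among such rows would give, but the counting rule is not stated and was not tested further. Gm23246 had 201, 139 and 285 counts in UD-P19 replicates 1 to 3, Snhg1-216 had 209, 126 and 292, and Snhg1-218 had 223, 125 and 278. Under an equal division, a snoRNA held by more isoforms is left with a smaller part of its own reads. The number of rows that hold each one whole, its own included, was 3 for Gm25855, 2 for Gm25894, 7 for Gm24452, 3 for Gm24453, 8 for Gm22744, 3 for Gm22680, 5 for Gm23246 and 4 for Snord22. A division in the same proportions in every library would leave the comparison of 1 snoRNA between the groups as it is and alter a comparison between snoRNAs. Whether the proportions were the same was not tested, and the isoforms that hold only part of a snoRNA varied in their percentage of its counts between libraries. When the counts of each snoRNA were multiplied by its number of rows, an estimate that takes the division as equal, the 8 snoRNAs made up 94.1% to 96.6% of all counts at the 26 rows in every library. The locus as a whole took 1.44%, 0.626% and 1.28% of the counts in UD-P19 replicates 1 to 3 and 1.02%, 1.04% and 1.4% in P19N replicates 4 to 6, which overlap, with UD-P19 replicate 2 the lowest. The totals include Gm42418, whose share was far larger in the UD-P19 than in the P19N libraries (values below). These percentages therefore do not show that the level of the locus was alike in the groups.

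Between the groups, 3 of the 23 members with a total of at least 15 counts passed the test, where 24% of all 1286 tested transcripts did (edgeR's quasi-likelihood test, Benjamini-Hochberg adjusted p of at most 0.05 over all 1286). Gm25855 was lower in P19N exosomes, and Snord22 and Snhg1-208, an isoform that contains part of Snord22, were higher; in single directions, 9.02% of all tested transcripts were called lower and 15% higher. The share of members called was thus not above the background. Rows that hold the same snoRNA match the same reads, so the members are not independent of each other. Of the 1286 transcripts, Gm42418 alone took 49.1% to 65.9% of the counts in UD-P19 libraries and 16.3% to 18.2% in P19N libraries. The median log2 fold change over all tested transcripts was 0.21, and its part in the members' values was not tested.

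**Figure D3:**
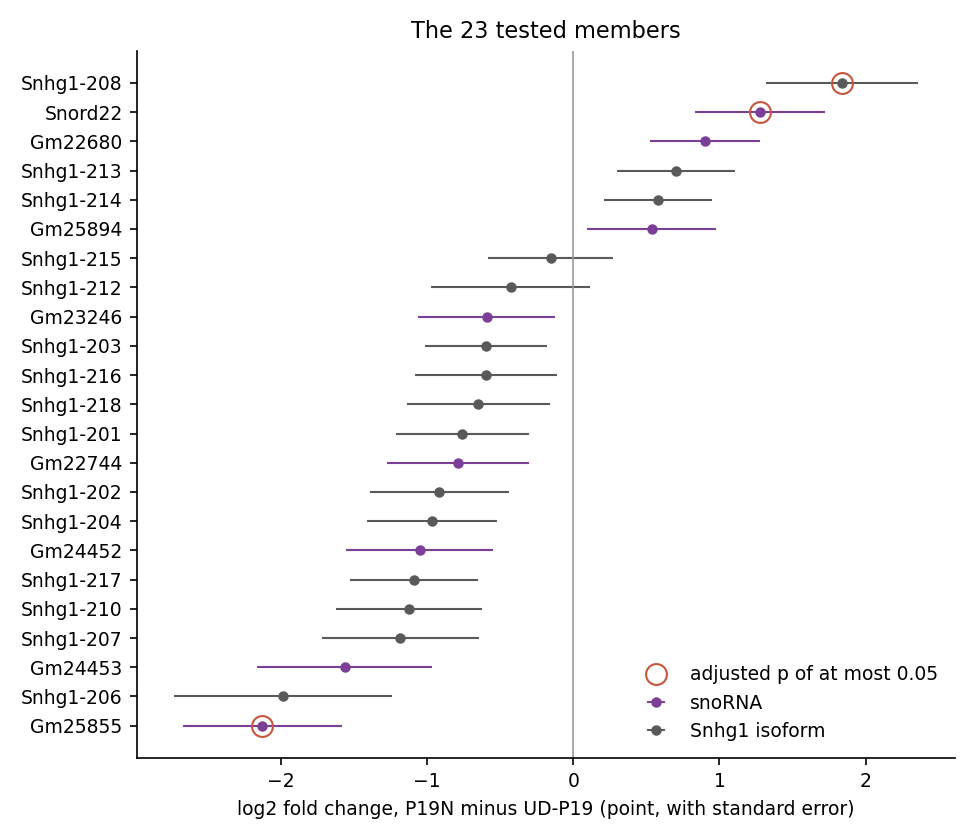
Log2 fold change (P19N minus UD-P19, edgeR) of the 23 tested members, with its standard error, snoRNAs in purple and isoforms in grey, circled where the adjusted p was at most 0.05. Gm25855 lies lowest at -2.13 and Snhg1-208 highest at 1.84, and the members between them spread on both sides of 0.

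Gm25855, in the first intron, gave the largest difference of any snoRNA of the locus. It had 690, 241 and 1005 counts in UD-P19 replicates 1 to 3 and 221, 162 and 256 counts in P19N replicates 4 to 6. Scaled to the library totals with edgeR's TMM factors (CPM), this was 1690, 285 and 1659 against 260, 214 and 356. UD-P19 replicates 1 and 3 were far above all P19N libraries, but UD-P19 replicate 2 lay below P19N replicate 6, so the groups overlapped. The mean was 1211 ± 802 CPM in UD-P19 and 277 ± 72.7 CPM in P19N exosomes (SD, n = 3), and the log2 fold change was -2.13 (SE 0.546, adjusted p = 0.00934, edgeR). It passed the threshold in all 18 alternatives run for it, with adjusted p between 8.09e-06 and 0.0418.

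Snord22, in the last intron that carries a snoRNA, differed in the opposite direction. It had 21, 44 and 31 counts in UD-P19 replicates 1 to 3 and 104, 93 and 94 counts in P19N replicates 4 to 6, or 51.4, 52 and 51.2 CPM against 122, 123 and 131 CPM. Every P19N library was above every UD-P19 library. The closeness of the UD-P19 values belongs to the TMM scale, since the share of Snord22 in the deposited snoRNA counts of the locus was 1%, 3.43% and 0.968% in these libraries and overlapped the 3.12% to 3.29% of the P19N libraries. The log2 fold change was 1.28 (SE 0.447, adjusted p = 0.0482, edgeR), which is 1.06 above the median of all tested transcripts. The adjusted p was close to the threshold and missed it in 12 of 18 alternatives, among them the fits without any 1 of the libraries other than UD-P19 replicate 2, although the log2 fold change stayed between 1.02 and 1.5 in all 18.

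Snhg1-208 ends inside Snord22 in one of its exons, so that it holds bases 1 to 59 of the snoRNA, shown here in capitals.
Snord22 bases in Snhg1-208: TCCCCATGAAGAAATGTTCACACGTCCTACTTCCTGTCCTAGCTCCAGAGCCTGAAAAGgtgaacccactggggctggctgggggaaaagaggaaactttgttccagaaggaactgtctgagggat
Snhg1-208 had 17, 14 and 24 counts in UD-P19 replicates 1 to 3 and 107, 67 and 94 counts in P19N replicates 4 to 6. All P19N libraries were above all UD-P19 libraries. The log2 fold change was 1.84 (SE 0.517, adjusted p = 0.0161, edgeR), and the call was lost without P19N replicate 4 (adjusted p = 0.0877, edgeR) and without P19N replicate 5 (adjusted p = 0.0584, edgeR). Its counts were 81%, 31.8% and 77.4% of those of Snord22 in the UD-P19 libraries and 103%, 72% and 100% in the P19N libraries. Snhg1-208 had 0 unique counts, so that every read counted there also matched another row, and how many of these reads were those of Snord22 was not tested. Its percentage of exact counts was 44.9%, against 63.6% for Snord22.

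Gm25894, in the second intron, had the highest deposited counts of the 8 snoRNAs in each library and did not pass the test. On the row-weighted scale Gm25855 was above it in UD-P19 replicates 1 and 3. It had 885, 481 and 1417 counts in UD-P19 replicates 1 to 3 and 2082, 1993 and 1638 counts in P19N replicates 4 to 6. The corresponding levels were 2168, 569 and 2339 CPM against 2447, 2629 and 2279 CPM. UD-P19 replicate 3 was above P19N replicate 6, and UD-P19 replicate 2 was lowest. Its log2 fold change was 0.54 (SE 0.442, adjusted p = 0.378, edgeR).

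Gm22680, in intron 6, had 174, 234 and 261 counts in UD-P19 replicates 1 to 3 and 606, 505 and 530 counts in P19N replicates 4 to 6. In CPM this was 426, 277 and 431 against 712, 666 and 738, with no overlap between the groups. Its log2 fold change of 0.90 (SE 0.378, adjusted p = 0.0952, edgeR) did not pass the threshold, and it did so in 3 of 18 alternatives, among them the fit without UD-P19 replicate 2 (adjusted p = 0.0243, edgeR).

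Among the remaining snoRNAs, none of which passed the test, all 4 log2 fold changes were below 0. Gm24453, in intron 4, had 32, 35 and 52 counts in UD-P19 replicates 1 to 3 and 29, 5 and 20 counts in P19N replicates 4 to 6. In CPM its groups did not overlap, P19N replicate 5 was the lowest, and the log2 fold change was -1.57 (SE 0.6, adjusted p = 0.0717, edgeR), a value that passed the threshold in 6 of 18 alternatives. Gm24452, in intron 3, had 67, 51 and 118 counts in UD-P19 replicates 1 to 3 and 59, 46 and 51 counts in P19N replicates 4 to 6. Its groups overlapped in CPM through UD-P19 replicate 2, and its log2 fold change was -1.05 (SE 0.503, adjusted p = 0.136, edgeR).

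Gm22744, in intron 5, had 20, 58 and 32 counts in UD-P19 replicates 1 to 3 and 28, 30 and 19 counts in P19N replicates 4 to 6. In CPM every UD-P19 library was above every P19N library, and the log2 fold change was -0.79 (SE 0.486, adjusted p = 0.238, edgeR). Gm23246, in intron 7, with the UD-P19 counts given above, had 175, 145 and 250 counts in P19N replicates 4 to 6. Its groups overlapped and its log2 fold change was -0.59 (SE 0.471, adjusted p = 0.359, edgeR). Gm23246 and Gm24453 also had the lowest percentages of exact counts among the snoRNAs, 50.5% and 42.8% of their counts, against 63.6% for Snord22 and 79.6% to 85.4% for the other 5.

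**Figure D4:**
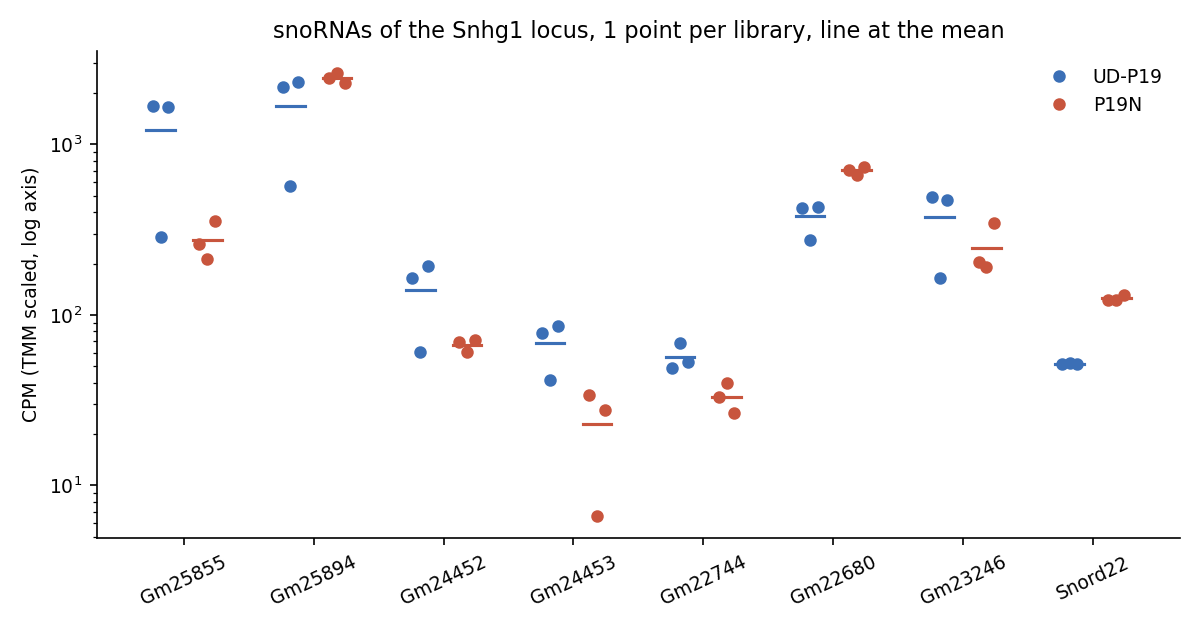
Level of each snoRNA of the locus in CPM (logarithmic axis), in order of their introns, 1 point per library and a line at the mean of each group. UD-P19 replicate 2 (the middle blue point) lies far below the other UD-P19 libraries for Gm25855, Gm25894, Gm24452 and Gm23246. It is also below them for Gm22680 and Gm24453 and above them for Gm22744. For Snord22 the 3 libraries of each group lie together on this scale.

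Over the 23 tested members the groups did not overlap for 11, 5 higher and 6 lower in P19N exosomes, where 42% of all tested transcripts did not overlap, 25.2% higher and 16.8% lower. These members share reads and are not that many separate RNAs. UD-P19 replicate 2 weighed most on the calls. Without it, 12 of the 23 members passed the test (4 higher and 8 lower). The background rose to 46.6% of 1145 transcripts, 33.4% higher and 13.2% lower. The 8 lower without UD-P19 replicate 2 were Gm25855, Gm24452, Gm24453 and isoforms that hold all or part of them. The 4 higher were Gm22680, Snord22, Snhg1-208 and Snhg1-213. That library also had the lowest percentage of counts in the locus, and its summed counts over the neuron marker names (Mir9, Mir124, Mir128, Miat, Meg3 and Rian genes, of which 8 of 12 were in the table) were the highest of all libraries at 169, where the UD-P19 group began at 9 and P19N libraries ranged from 63 to 108. Meg3 with 65 and Rian with 93 counts carried most of that sum, while Mir124-2hg had 1 count there against 8, 10 and 2 in P19N replicates 4 to 6, and Miat had 10 against 9, 12 and 4. The pluripotency hairpins of the Mir290 to Mir295 and Mir302 to Mir367 genes, of which 4 of 11 were in the table, summed to 3, 13 and 0 counts in UD-P19 replicates 1 to 3 and 0 to 2 in P19N libraries, so that UD-P19 replicate 2 was the highest for both marker sets, and Mir9-1, Mir9-2 and Mir9-3 were at 0 in all UD-P19 libraries and at 0 to 2 counts each in P19N libraries. Their part in the differences of the locus was not tested.

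The composition of the locus does not depend on the scaling of the libraries, since each snoRNA is set against the others of the same library. With counts multiplied by the number of rows that hold each snoRNA, Gm25855 made up 33.5%, 17.3% and 32% of the snoRNA counts in UD-P19 replicates 1 to 3 and 7.66%, 6.34% and 9.81% in P19N replicates 4 to 6. Gm25894 made up 28.7%, 23% and 30.1% in UD-P19 and 48.1%, 52% and 41.8% in P19N libraries. The groups were apart for both, in opposite directions. The ratio of Gm25894 to Gm25855 on this scale was 0.855, 1.33 and 0.94 in the UD-P19 libraries and 6.28, 8.2 and 4.27 in the P19N libraries, a pair that was chosen after its values were seen.

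The share of Gm22680 was 8.45%, 16.8% and 8.31% in UD-P19 replicates 1 to 3 and 21%, 19.8% and 20.3% in P19N replicates 4 to 6. The share of Snord22 was 1.36%, 4.21% and 1.32% in UD-P19 and 4.8%, 4.86% and 4.8% in P19N libraries. Both were above all UD-P19 libraries in every P19N library, and UD-P19 replicate 2 was nearest to the P19N libraries in both. Gm24452 was lower without overlap, at 8.3% ± 0.622 in UD-P19 and 4.51% ± 0.286 in P19N exosomes (SD, n = 3), as was Gm24453, at 1.91% ± 0.525 and 0.656% ± 0.416. Gm23246 and Gm22744 overlapped. For Gm22744, P19N replicate 5 at 3.13% lay above UD-P19 replicates 1 and 3 at 2.59% and 2.72%, while UD-P19 replicate 2 was the highest at 11.1%.

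With 3 libraries against 3 the exact two-sided permutation test cannot give less than 0.1, and it gave 0.1 for each of the 6 snoRNAs whose shares did not overlap (adjusted p = 0.133 over the 8 snoRNAs, exact permutation test), so none could reach 0.05. Shares in a sum of 100% are not independent of each other. On the counts as deposited, without the number of rows, the groups were apart for Gm25855, Gm25894, Gm24452, Gm24453 and Gm23246 (exact permutation p = 0.1, adjusted 0.16) and overlapped for Gm22680, Gm22744 and Snord22. Differences of share kept their direction for all 8 snoRNAs on both scales.

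**Figure D5:**
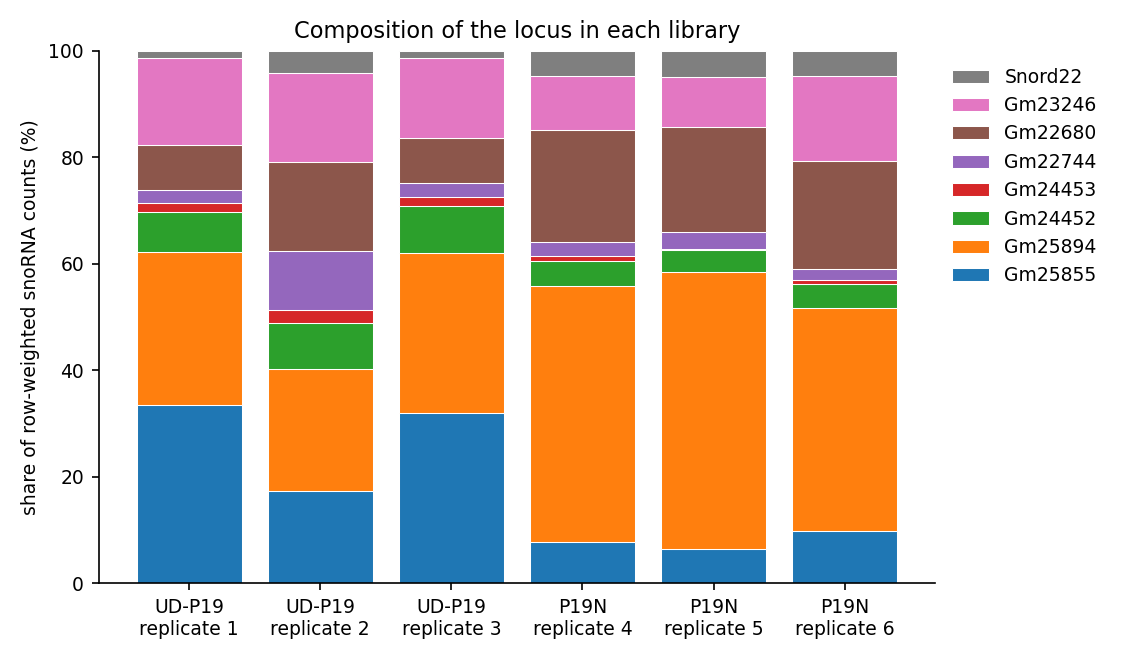
Share of each snoRNA in the snoRNA counts of the locus (%), 1 bar per library, counts multiplied by the number of rows that hold the snoRNA whole. Gm25855 (blue, at the bottom) takes 17.3% to 33.5% in UD-P19 libraries and 6.34% to 9.81% in P19N libraries, while Gm25894 (orange) takes 23% to 30.1% and 41.8% to 52%.

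Levels were ordered per 100 bases of length, on the row-weighted scale, and the order of neighbours was compared within each library. In UD-P19 exosomes the level of Gm25855 was 5047 ± 3343 CPM and that of Gm25894 was 4511 ± 2604 CPM (SD, n = 3), with Gm25855 above Gm25894 in 2 of 3 libraries. Gm25894 was above Gm23246, at 2803 ± 1369 CPM, and Gm23246 above Gm22680, at 1643 ± 381 CPM, in 3 of 3 libraries. Gm24452 followed at 1358 ± 685 CPM, Gm22744 at 699 ± 128 CPM, Gm24453 at 270 ± 94 CPM and Snord22 at 164 ± 1.36 CPM, and of these neighbours Gm22744 was above Gm24453 in 3 of 3 libraries while the others held their order in 2 of 3. In P19N exosomes the order on the same scale was Gm25894 at 6538 ± 467 CPM, Gm22680 at 3066 ± 157 CPM, Gm23246 at 1853 ± 646 CPM, Gm25855 at 1152 ± 303 CPM, Gm24452 at 651 ± 53.7 CPM, Gm22744 at 406 ± 80.9 CPM, Snord22 at 398 ± 15.3 CPM and Gm24453 at 90.1 ± 56.9 CPM. Every pair of neighbours held this order in 3 of 3 P19N libraries except Gm22744 and Snord22, which did so in 2 of 3.

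The isoforms repeated the pattern of the snoRNAs they hold. For all 11 isoforms with a whole snoRNA, the log2 ratio of the group means had the sign of the same ratio for the summed snoRNAs. The values differed by at most 0.18. This largely follows from the counting, since a read inside a snoRNA also matches each isoform that holds it. All of these isoforms except Snhg1-215 had 0 unique counts, so the agreement is no separate result on the isoforms. Snhg1-215, which holds both Gm25855 and Gm25894, had a log2 fold change of -0.15 (SE 0.428, adjusted p = 0.819, edgeR), a value whose sign turned to 0.10 when the libraries were scaled by total counts only. Snhg1-203, which holds 6 snoRNAs without Gm25894 and Gm23246, had 1061, 700 and 1571 counts in UD-P19 replicates 1 to 3 and 1142, 887 and 1051 counts in P19N replicates 4 to 6, and a log2 fold change of -0.60.

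None of the isoforms with a whole snoRNA passed the test as fitted over all 6 libraries. Of 17 alternatives each, Snhg1-217 passed in 5, Snhg1-204 in 3 and Snhg1-210 in 2, all lower and all also without UD-P19 replicate 2, and Snhg1-203 (lower) and Snhg1-213 (higher) passed without that library only. Snhg1-214, with Gm22680 and Gm22744, had 223, 322 and 357 counts in UD-P19 and 655, 544 and 560 counts in P19N libraries. Snhg1-213, with Snord22 and Gm22744, had 55, 118 and 78 counts in UD-P19 and 200, 152 and 159 counts in P19N libraries. In CPM both were above all UD-P19 libraries in every P19N library, with log2 fold changes of 0.58 and 0.70.

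Snhg1-204 and Snhg1-217 hold the same pair, Gm24452 and Gm22744. Snhg1-204 had 103, 103 and 147 counts in UD-P19 and 86, 73 and 84 counts in P19N libraries, and Snhg1-217 had 94, 118 and 154 counts against 89, 63 and 75. In CPM all P19N libraries were below all UD-P19 libraries for both, with log2 fold changes of -0.97 and -1.09. Snhg1-210, with Gm24452 alone, had 83, 61 and 120 counts in UD-P19 and 63, 42 and 62 counts in P19N libraries (log2 fold change -1.13), and its groups overlapped. Snhg1-202, with Gm22744 whole, had 25, 54 and 32 counts against 28, 22 and 23 (log2 fold change -0.92), apart in CPM.

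Of the isoforms with Gm23246, Snhg1-216 had 171, 147 and 257 counts and Snhg1-218 had 160, 150 and 249 counts in P19N replicates 4 to 6, beside the UD-P19 counts given above. Snhg1-201, which holds Gm24452 as well, had 281, 201 and 411 counts in UD-P19 and 245, 183 and 299 counts in P19N libraries. Their log2 fold changes were -0.60, -0.65 and -0.76, and all 3 had overlapping groups. Their percentages of exact counts were 50.8%, 51.4% and 57.7%, close to the 50.5% of Gm23246.

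Of the isoforms that hold part of a snoRNA, Snhg1-207 begins at base 13 of Gm25855 and ran at 7.86% to 32.1% of its counts, with 99, 47 and 79 counts in UD-P19 and 60, 52 and 34 counts in P19N libraries. Snhg1-212 begins at base 13 of Gm22744 and ran at 37.5% to 89.3% of its counts, with 10, 47 and 12 counts in UD-P19 and 25, 19 and 15 counts in P19N libraries. Snhg1-206 begins at base 30 of Gm24453 and had 4, 14 and 6 counts against 3, 3 and 1. Their log2 fold changes were -1.18, -0.43 and -1.98, none past the threshold. Snhg1-207 passed it in 2 of 17 alternatives and Snhg1-206 in 4 of 16, those without UD-P19 replicate 1 or 3 among them. The value for Snhg1-207 passed without UD-P19 replicate 2, and that of Snhg1-212 turned to 0.38 without UD-P19 replicate 2. With all rows summed per gene, the 18 isoforms of Snhg1 had 4473, 3132 and 6548 counts in UD-P19 and 5774, 4952 and 5376 counts in P19N libraries, with a log2 fold change of -0.32 (SE 0.385, adjusted p = 0.566, edgeR). The summed snoRNA counts were 0.467, 0.41 and 0.489 of the summed isoform counts in UD-P19 and 0.572, 0.602 and 0.532 in P19N libraries, with no overlap, and this ratio was highest where the share of Gm25894, which is held by only 1 isoform, was highest.

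Counts that matched 1 transcript only, deposited as unique counts, were nearly absent. All 8 snoRNAs had 0 unique counts in every library. Each is held whole by at least 1 isoform, so a read inside it matches more than 1 transcript and this 0 follows from the annotation. The limit of up to 3 counts per library that a count of 0 would otherwise still allow does not apply to them. Among the isoforms Snhg1-215 alone had any, 17, 12 and 28 in UD-P19 replicates 1 to 3 and 9, 6 and 10 in P19N replicates 4 to 6, or 0.597% of its counts. In CPM of the unique counts these were 70.3, 36.5 and 76.3 against 20.4, 16.9 and 31.9, and every P19N library was below every UD-P19 library, where the groups did not overlap for 41.4% of all transcripts tested on unique counts, with a log2 fold change of -1.40 (SE 0.534, adjusted p = 0.0784, edgeR). It was the only member tested, and 0 members were called, where 24.9% of 510 transcripts were; its unadjusted p was 0.0242, and edgeR's exact test and DESeq2 called 0 as well. Without UD-P19 replicate 2 it passed the threshold (adjusted p = 0.0165, edgeR). With the libraries scaled by their total unique counts only, the log2 fold change was -0.33 (adjusted p = 0.621, edgeR) and the groups overlapped, UD-P19 replicate 2 being below P19N replicates 4 and 6.

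Snhg1 was set beside other snoRNA hosts by counts only. Of its 8 snoRNAs, 1 was called higher and 1 lower, with a median log2 fold change of -0.69. Of the snoRNAs of the Gas5 locus, a host gene of the same kind, 9 of 10 were tested and 3 were called lower and 0 higher, with a median of -0.98; 1 of the 3, Mir5117, has a microRNA gene name but is annotated as a snoRNA. Of the snoRNAs in other Snhg genes, 13 of 17 were tested and 4 were called lower and 0 higher, with a median of -0.69. Over all annotated snoRNAs, 425 of 605 were tested, 75 were called higher and 48 lower, and the median was -0.09, beside 0.21 for all tested transcripts. Of all 1286 tested transcripts, 24% were called, 15% higher and 9.02% lower. Whether the loci differ was not tested.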

How the data were processed

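Small RNA libraries of exosomal RNA, 1 per replicate, were sequenced as paired 75-base reads. The authors trimmed adaptors, joined read pairs and counted reads against the non-coding transcripts of GRCm38 in CLC Genomics Workbench with default settings. The deposited values are raw counts per transcript, without normalization, with further deposited columns of unique counts and exact counts, read here as counts of reads that match 1 transcript only and that match without mismatch. How the authors counted shared reads is not stated. Another 54 deposited columns of per-sample values were not used, nor were the authors' own means, fold changes and p-values. The totals over the 5880 rows were 454499 to 887460 counts per library, which is not the full depth. GENCODE vM21 matched 5773 of the 5880 rows.

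Rows whose 6 libraries summed to 15 counts or more were tested with edgeR 4.0.16 (TMM, quasi-likelihood test, R 4.3.3) over all 6 libraries, with Benjamini-Hochberg adjustment and a call at 0.05, and DESeq2 1.42.0 as an alternative. The fit was tested on simulated data. Shares were compared by exact permutation of the libraries over 20 relabellings. Every member was named, those with at least 15 counts with their values in each library. Members and comparison lists were chosen with earlier results of these data known. The libraries are described as separate exosome preparations; counting error alone underlies the limit for 0 counts.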

Additional observations from a re-analysis of the deposited data

How the results depend on the processing

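On deposited counts, 3 members were called (2 higher, 1 lower). In the same order of total, higher and lower, with the percentage of all tested transcripts called in brackets (24% in the fit reported), the counts were 5, 1 and 4 with DESeq2 size factors (28.5%), 5, 1 and 4 without Gm42418 (28.8%), 8, 2 and 6 with the DESeq2 test (29.2%), 6, 3 and 3 with exact counts (37.4%, chosen after seeing the data), 3, 1 and 2 with a total of at least 5 counts (19.1%), 2, 1 and 1 with no filter (6.08%), with TMMwsp (22.7%) and with the robust quasi-likelihood test (24.6%), 2, 0 and 2 of 9 with rows summed per gene (25.3%), 4, 3 and 1 with total counts only (22.2%), and 1, 0 and 1 at an adjusted p of at most 0.01 (14.2%); filterByExpr (38.2%) and edgeR's exact test (26%) gave 3, 2 and 1. Leaving out 1 library gave 1 to 12 members, 0 to 4 higher and 1 to 8 lower; 12 were called without UD-P19 replicate 2 (46.6%) and 1 without P19N replicate 4 (17.2%) or 5 (19%). On unique counts 0 to 1 members were called, all lower, and with total counts only the log2 fold change of Snhg1-215 there was -0.33 in place of -1.40. The log2 fold change of Snhg1-212 on deposited counts, -0.43, ran from -0.95 to 0.38 over the fits that left out 1 library, above 0 only without UD-P19 replicate 2, and with total counts only that of Snhg1-215 was 0.10 in place of -0.15. The causes were not tested. The other directions held in all alternatives run, and those of the shares and of the ratio of snoRNA to isoform counts held in every one. Unique counts gave no shares and no ratio, since all snoRNAs were at 0. The median over all tested transcripts moved between -0.04 and 0.60 over the fits on deposited counts. No paired analysis was possible because the groups share no replicate number.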
